A study of Homo sapiens with 5 samples.

Results

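NEDD9 overexpression in the human lung cancer line CRL-5907 was measured on 2 of the 5 exon arrays of a study of NEDD9 in lung cancer cells. The comparison is the log2 expression level on the array of CRL-5907 cells with NEDD9 overexpression minus the level on the array of CRL-5907 control cells. Its members are the 14232 genes that could be named from features carrying exactly 1 gene symbol. For the 197 genes with several features the brightest by its mean over the 5 arrays was taken. Of these genes, 7362 were above a level filter, meaning that the brighter of their CRL-5907 values exceeded the median of named genes on its array (5.70 for the control, 5.72 with overexpression). Per the submitters, CRL-5907 has wild-type LKB1 (gene STK11) and a low NEDD9 level, and no treatment or time point is named for either array. The other 3 arrays were made from A549, an established adenocarcinoma line in which LKB1 is mutated and inactive and NEDD9 is raised: 1 control array and 1 array for each of 2 short hairpins against NEDD9. The labels leave unsaid whether an empty construct was put into the control cells, which promoter or NEDD9 sequence was expressed, or whether the cells were a clone or a pool.

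NEDD9 is a scaffold protein of the Cas family, without enzyme activity of its own. At integrin adhesions it is phosphorylated by focal adhesion kinase and Src family kinases and then recruits CRK adaptors and exchange factors that activate small GTPases, a route known for cell spreading and migration. NEDD9 also binds Aurora A kinase at the centrosome, and it is known as a gene whose expression accompanies invasion and metastasis in several tumour types.

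Each value below is a normalised log2 level from 1 array, and a difference is the overexpression level minus the control level unless stated otherwise. With 1 array in each condition no difference has a replicate check and none was tested. A gene was counted as higher or lower when it passed the level filter and differed by at least 1.5-fold, which is 0.58 on the log2 scale. This rule counted 259 genes as higher (3.52% of the 7362) and 62 as lower (0.842%). For scale, the hairpin 2 array of A549 set against the hairpin 1 array, which differ by construct, gave 0.317% higher and 0.551% lower. The SD of the difference over genes above the filter was 0.27 with overexpression and 0.165 between the hairpin arrays. Among genes with a mean level from 6.5 to 7.5 the SDs were 0.273 and 0.16, and among genes above 8.5 they were 0.262 and 0.142. The spread was wider with overexpression in every range of level above 4 and similar below it. The count leaned to the higher side, as 80.7% of the counted genes were higher, but it fell to 64.7% when the arrays were quantile-normalized again and to 69.6% when a trend between difference and level was taken out. Over all genes the median difference was 0.00 and over genes above the filter 0.05, the background against which gene lists are given below. Between the hairpin arrays the SD rose to 0.218 at levels from 4 to 5.7 and to 0.249 below 4. Whether a level under the median of its array exceeds background is unknown, and a difference measured from such a level is uncertain in size. This applied to 68 of the 259 higher genes, by their control value, and to 15 of the 62 lower genes, by their overexpression value.

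NEDD9 had a log2 level of 4.66 on the control array and 9.49 with overexpression. The difference of 4.83, or 28.5-fold, was the highest of all genes above the filter. Its exact size is uncertain because the control value lay below its array's median. In A549 the NEDD9 level was 8.94 for control cells, 8.35 for hairpin 1 and 8.52 for hairpin 2, so the overexpression array lay above every A549 array. STK11 was at 6.13 on both CRL-5907 arrays. The values were exactly equal, which the summary method can produce, as it did for 1363 of the 14232 genes, and equality does not show that the gene was unchanged. The overexpression array held CRL-5907 and not A549 cells by its expression: the 50 genes furthest above CRL-5907 on the A549 control array had a median level of 8.80 there, 4.20 on the CRL-5907 control and 4.23 with overexpression. All 6 epithelial markers lay above the array median on both CRL-5907 arrays. Of the lung markers FOXA1 (8.48 and 8.16) and FOXA2 (7.13 and 7.14) did so, while the surfactant genes SFTPB and SFTPC and the club cell gene SCGB1A1 were below it. The leukocyte antigen PTPRC was at 1.72 on both arrays, and no more than 2 leukocyte, 1 fibroblast, 1 endothelial and 1 neuroendocrine marker exceeded the median on either array. RNA of a cell type that became more frequent and RNA that increased in each cell cannot be told apart on such arrays.

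**Figure D1:**
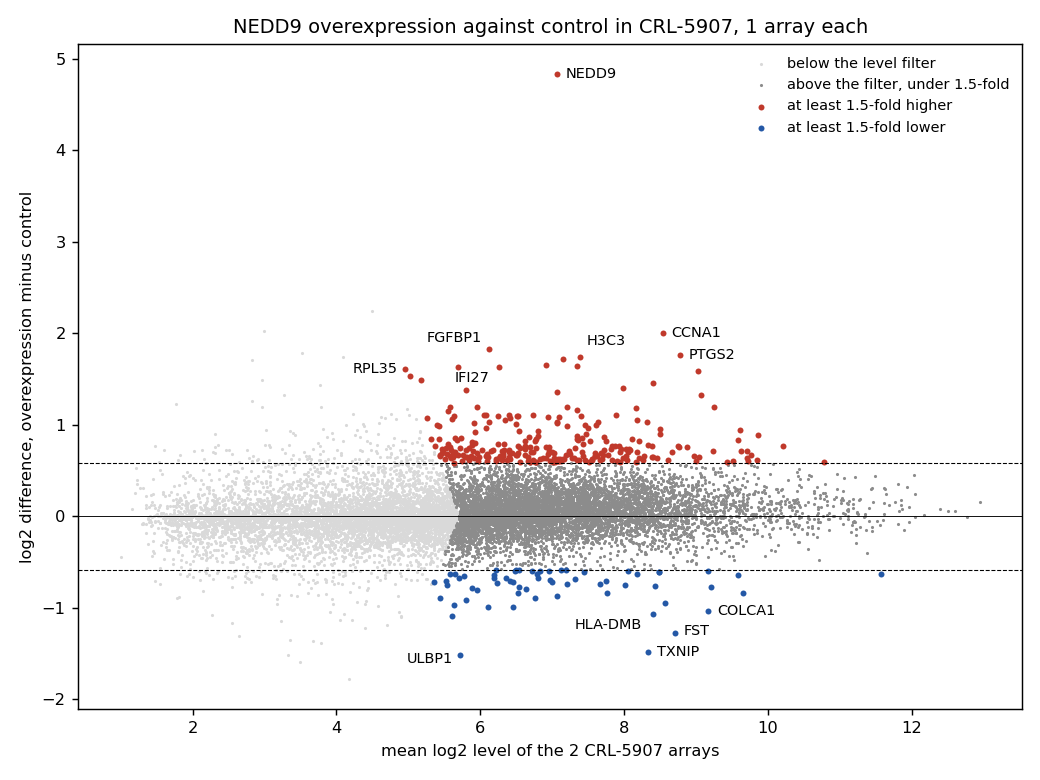
Log2 difference between overexpression and control (vertical axis) against the mean log2 level of the 2 CRL-5907 arrays (horizontal axis) for 14232 genes, each point 1 gene. Dashed lines mark 1.5-fold: 259 red genes lie above and 62 blue genes below, NEDD9 stands alone at 4.83, and ULBP1 and TXNIP are the furthest below 0.

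Promoter letters are shown for groups of genes that were higher together, from the RefSeq promoter table (GRCh38.p14), which spans 250 bases before to 50 after the start of each gene. Short motifs were searched on both strands in 27305 promoters, each motif without regard to overlap with another. A match describes the letters only and is neither a site nor a cause. The interferon response motif GAAANNGAAA, bound by STAT and IRF complexes, was held by 3.65% of all promoters and by 24 of the 36 interferon-stimulated genes matched. Stretches of 60 bases show it in capitals on either strand, for IFI6 (chr1:27672251-27672310, minus strand), IFI27 (chr14:94110616-94110675, plus strand) and OAS3 (chr12:112938414-112938473, plus strand).
IFI6: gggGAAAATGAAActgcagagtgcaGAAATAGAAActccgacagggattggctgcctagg
IFI27: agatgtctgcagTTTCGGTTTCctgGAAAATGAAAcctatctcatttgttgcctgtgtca
OAS3: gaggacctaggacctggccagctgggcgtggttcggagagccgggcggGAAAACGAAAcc
IFI6 and IFI27 each hold a pair of matches within these 60 bases, and OAS3 holds its match right before the start of the gene.

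The E2F motif, searched as TTTCCCGC or TTTGGCGC, was held by 2.31% of all promoters and by 17 of the 41 DNA replication and G1/S genes matched. It is shown in capitals for TYMS (chr18:657588-657647, plus strand), DTL (chr1:212035688-212035747, plus strand) and GINS2 (chr16:85688955-85689014, minus strand), which were higher with overexpression.
TYMS: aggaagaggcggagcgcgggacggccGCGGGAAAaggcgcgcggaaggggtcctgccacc
DTL: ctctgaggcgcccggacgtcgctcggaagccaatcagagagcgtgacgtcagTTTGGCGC
GINS2: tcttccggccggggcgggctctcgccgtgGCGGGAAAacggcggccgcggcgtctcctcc
In TYMS and GINS2 the match reads on the opposite strand of the gene, and in DTL it ends at the start of the gene.

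The CCAAT box, bound by NF-Y, is common: 35.7% of all promoters held the letters CCAAT, against 34 of 38 replication-dependent histone genes matched. It is shown in capitals for the 3 histone H3 genes that led the members above the filter, H3C1 (chr6:26020372-26020431, plus strand), H3C2 (chr6:26032122-26032181, minus strand) and H3C3 (chr6:26045304-26045363, plus strand).
H3C1: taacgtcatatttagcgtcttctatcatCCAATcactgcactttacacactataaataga
H3C2: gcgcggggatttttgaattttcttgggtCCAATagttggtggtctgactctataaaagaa
H3C3: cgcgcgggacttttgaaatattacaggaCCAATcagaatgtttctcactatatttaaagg
In each of the 3 the box lies 46 to 49 bases before the start. The NF-kB motif GGGANNNNCC was held by 25.1% of all promoters and by 22 of 34 inflammatory genes matched, and is shown for the cytokine genes IL6 (chr7:22727103-22727162, plus strand) and CXCL8 (chr4:73740427-73740486, plus strand).
IL6: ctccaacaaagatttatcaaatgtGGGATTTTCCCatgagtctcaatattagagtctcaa
CXCL8: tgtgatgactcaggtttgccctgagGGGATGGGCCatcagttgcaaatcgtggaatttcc
In IL6 the letters match on both strands with an overlap. Over all 216 higher genes with a promoter in the table the shares were 4.63% for the interferon motif, 5.56% for E2F, 39.4% for CCAAT and 30.1% for NF-kB. Among the 6095 genes above the filter with a promoter they were 2.63%, 3.66%, 36.0% and 31.7%. Among the 47 lower genes with a promoter they were 2.13%, 0.0%, 44.7% and 21.3%. The sterol motif TCACNCCAC was in none of 18 promoters of cholesterol genes, which says only that these letters are not in that window. Motifs for NRF2 (TGACNNNGC), cAMP response (TGACGTCA), AP-1 (TGANTCA) and ATF4 (TGATGNAA) were searched as well. They were in 7 of 18 NRF2 targets, 3 of 21 CREB-list genes, 1 of 18 immediate early genes and 5 of 23 ATF4 targets. Over all promoters the shares were 13.6%, 1.98%, 7.76% and 3.67%.

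Of the 40 highest genes, 6 that encode secreted or membrane proteins are described here, picked after the values were seen and without a count of such genes. FGFBP1, a carrier that releases fibroblast growth factors from the matrix, was at 5.21 on the control and 7.04 with overexpression, a difference of 1.83. F3, tissue factor, the cell-surface starter of coagulation, went from 6.29 to 8.02, a difference of 1.72. SEMA6A, a membrane-bound semaphorin of axon guidance, was at 6.52 and 8.17 (1.65). TGFB3, a ligand of the TGF-beta receptors, was at 4.87 and 6.50 (1.63), the control value being below the array median. RSPO3, an R-spondin that amplifies WNT signalling, was at 8.41 and 9.73 (1.32). NOG, noggin, which binds and blocks BMP ligands, was at 5.09 and 6.18 (1.09). Of these 6 genes F3, SEMA6A and RSPO3 had both values above the array medians. On the A549 control array the level of RSPO3 was 9.42, near that of CRL-5907 with overexpression, whereas FGFBP1 and SEMA6A were at 3.70 and 3.73.

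PTGS2, the inducible cyclooxygenase that makes the precursor of prostaglandins, was at 7.89 on the control and 9.65 with overexpression (1.76). PLA2G2A, a secreted phospholipase that releases fatty acids from phospholipids, was at 6.40 and 7.49 (1.09). They were the only 2 of the 12 prostaglandin genes above the filter to pass 1.5-fold, and the median over all 23 measured was 0.07. On the A549 arrays PTGS2 lay between 10.2 and 10.3, above both CRL-5907 arrays.

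CCNA1, cyclin A1, an A-type cyclin best known from male germ cells, was the highest gene after NEDD9, at 7.54 and 9.54 (2.00, or 4.01-fold). It was below 3.5 on all 3 A549 arrays. GEM, a small GTP-binding protein that restrains voltage-gated calcium channels, was at 6.08 and 7.74 (1.66). PLK2, a Polo-like kinase, was at 5.12 and 6.49 (1.38). BCO1, the enzyme that cleaves beta-carotene, was at 6.39 and 7.75 (1.36), and PRRG4, a membrane protein with a Gla domain, at 4.98 and 6.18 (1.20). SLC6A12, a transporter of betaine and GABA, was at 7.68 and 9.13 (1.46). CTH, the cystathionine gamma-lyase of cysteine synthesis, was at 8.65 and 9.84 (1.20). The remaining genes of the 40 highest included the dynein adaptor BICD1 (1.15), the mitochondrial adenylate kinase AK4 (1.11), the glycerolipid enzyme GPAT3 (1.11), the G protein subunit GNG4 (1.10), the sorting nexin SNX25 (1.10) and the initiator caspase CASP9 (1.07). RPL35, a ribosomal protein gene at 4.14 and 5.75 (1.61), has many near-identical copies in the genome, as do histone genes, and its value is uncertain. LINC00472 (1.11), FAM223A (1.10), GASAL1 (1.10) and LOC100132356 (1.07) were also among the 40. In all, 16 of the 40 highest had a control value at or below the array median.

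**Figure D2:**
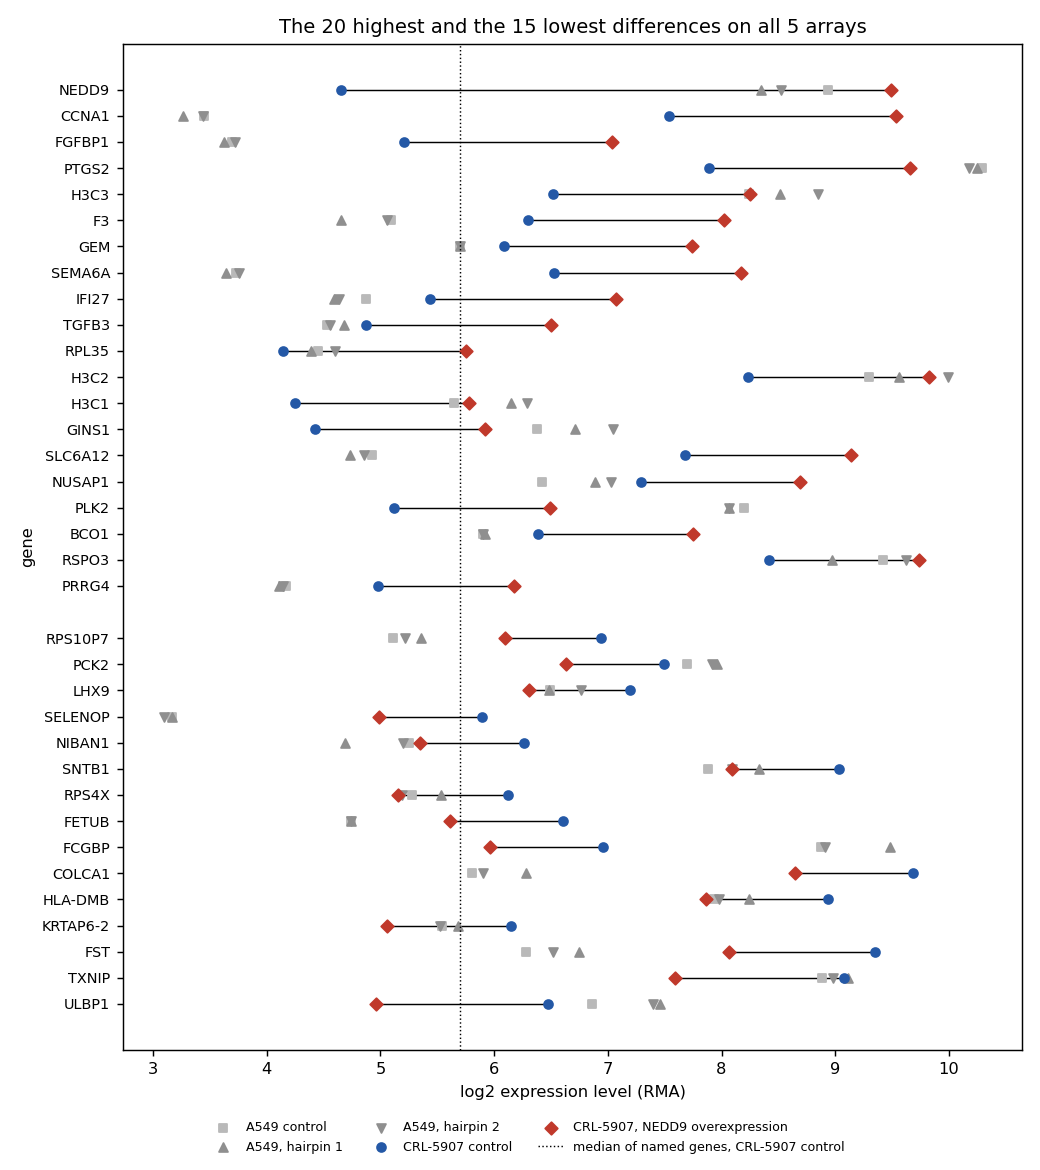
Log2 levels (horizontal axis) of the 20 genes with the highest and the 15 with the lowest differences among genes above the filter, on all 5 arrays, with a line joining the 2 CRL-5907 arrays. The dotted line is the control array's median of 5.70: NEDD9 (4.66), H3C1 and GINS1 start to the left of it, while CCNA1, PTGS2 and TXNIP lie to its right on both CRL-5907 arrays.

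Fewer genes were lower, and by smaller amounts. ULBP1, a ligand by which stressed cells are seen by the NKG2D receptor of natural killer cells, was at 6.47 on the control and 4.96 with overexpression, a difference of -1.51. TXNIP, an alpha-arrestin that inhibits thioredoxin and glucose uptake, went from 9.07 to 7.59 (-1.48). FST, follistatin, which binds and neutralises activin, went from 9.35 to 8.07 (-1.28). TXNIP and FST had both values above the array medians, and the ULBP1 value with overexpression was below its median. ULBP1 was the only 1 of 12 natural killer and checkpoint ligands above the filter to be counted as lower, and TXNIP the only 1 of 17 alpha-arrestin and glucose-sensor genes, where the MAX dimerisation partner MXD1 was higher (0.71). The ULBP1 count has no weight, as that gene passed the filter only through the control array.

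HLA-DMB, which helps load peptides on MHC class II molecules, was at 8.94 and 7.87 (-1.07). COLCA1 was at 9.68 and 8.65 (-1.03), and FCGBP, a mucus protein, at 6.96 and 5.96 (-0.997). FETUB, fetuin B, was at 6.61 and 5.62 (-0.99), and SELENOP, the plasma carrier of selenium, at 5.89 and 4.99 (-0.90). FETUB and SELENOP were the 2 lower genes among 17 liver-type plasma protein genes above the filter. Both had overexpression values below the array median and passed the filter only through the control array, so this count has no weight. SNTB1, a syntrophin, was at 9.03 and 8.09 (-0.94). NIBAN1 was at 6.27 and 5.35 (-0.92), and the LIM homeobox factor LHX9 at 7.20 and 6.31 (-0.89). KRTAP6-2 (-1.09) and KRTAP10-7 (-0.67), keratin-associated proteins, and the ribosomal gene RPS4X (-0.97), which has near-identical copies, were also lower.

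The lower genes also included enzymes and transporters of metabolism. PCK2, the mitochondrial enzyme that makes phosphoenolpyruvate, was at 7.50 and 6.63 (-0.87). ALDH3A1, an aldehyde dehydrogenase, was at 9.60 and 8.82 (-0.78), and MAOA, monoamine oxidase A, at 7.35 and 6.64 (-0.71). The lipid droplet protein PLIN1 (-0.80), the cyclic AMP phosphodiesterase PDE4B (-0.79) and LRRC8D, a subunit of volume-regulated anion channels (-0.78), were lower as well. SLC40A1, ferroportin, the iron exporter, was at 7.58 and 6.84 (-0.75), and CYBRD1, a ferric reductase, at 6.81 and 6.10 (-0.71). The receptor-side genes ROR1, an orphan receptor of the WNT5A pathway (-0.72), and IRS1, the insulin receptor substrate (-0.69), were lower, as was the ERBB4 ligand NRG4 (-0.68). TSPAN7 (-0.84), TMEM45B (-0.84), PDZK1IP1 (-0.76), CADM3, a cell adhesion molecule (-0.75), and ANTXR2, an anthrax toxin receptor (-0.69), were further membrane proteins among the 40 lowest. In all, 12 of the 40 lowest had an overexpression value at or below the array median.

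Gene lists are described by their counts and by the median over all measured members. The background is 3.52% higher, 0.842% lower and a median of 0.00. The lists were chosen with earlier results of these data known, so their counts are a description and not independent support. A higher member with a control value at or below the array median passed the filter only through the overexpression array. Its part of a count has no weight. The same holds for a lower member with an overexpression value at or below the array median, which passed only through the control array. The Cas family and its partners showed small differences. None of the 32 Cas scaffolds and partners above the filter passed 1.5-fold in either direction, and the median over all 37 measured, NEDD9 left out, was 0.09 (0.02 after quantile normalization). The adaptor NCK2 was at 0.54, AURKA, the Aurora A kinase, at 0.53, the small GTPase RAP1A at 0.42 and the phosphatase PTPN12 at 0.40. Some further members were looked up after the values had been seen. BCAR1, the founding Cas protein p130Cas, was at 7.50 and 7.60 (0.10), PTK2, focal adhesion kinase, at 8.58 and 8.81 (0.24), and SRC at 7.82 and 7.94 (0.12). None of the 20 genes above the filter among the LKB1 complex and AMPK-family kinases passed either (median 0.05 over 24). The furthest was PRKAB2, an AMPK beta subunit, at -0.58, just short of 1.5-fold, and NUAK1 was at 0.40. PRKAB2 passed 1.5-fold in the lower direction with centred arrays (-0.60), quantile normalization (-0.72) and the trend removed (-0.66).

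Immediate early genes, the transcription factors induced within minutes of a signal, had a median of 0.22, with 21 of 24 above 0. Of the 22 above the filter 4 passed 1.5-fold. ATF3 was at 5.44 and 6.17 (0.73), FOSL1 at 6.64 and 7.35 (0.71), KLF6 at 6.17 and 6.83 (0.67) and JUN at 7.37 and 8.03 (0.66). The ATF3 control value was below the array median. With quantile normalization the list median was 0.13 and JUN (0.56) came under 1.5-fold. The feedback genes of the MAP kinase pathway had a median of 0.06, which turned to -0.02 both with quantile normalization and with the trend removed. In that list SPRY2, a Sprouty inhibitor, was at 0.87 and the phosphatase DUSP10 at 0.67, the only 2 of 23 counted. DUSP10 had a control value of 5.30, below the array median. In the EGF receptor family 1 ligand was higher and 1 lower (NRG1 at 0.74, NRG4 at -0.68), and the median was -0.14. Among FGF, MET, AXL and VEGF signals FGFBP1, IGFBP7, at 5.66 and 6.38 (0.72), and the ligand PDGFD, at 5.46 and 6.11 (0.65), were higher. All 3 passed the filter through the overexpression array, with control values at or below the median, so their count has no weight. In the same list the insulin-like growth factor binding protein IGFBP1 was lower, at 11.88 and 11.25 (-0.63).

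The urokinase and tissue factor list had 5 of 17 members above the filter counted as higher and none as lower, and a median of 0.09 over 24. Beside F3, PLAU, urokinase, which turns plasminogen into plasmin, was at 7.11 and 8.11 (1.00), and its receptor PLAUR at 7.67 and 8.30 (0.63). PROS1, protein S, a cofactor of the anticoagulant protein C (0.71), and the protease-activated receptor F2RL2 (0.64) were the others. The PROS1 control value, 5.26, was below the array median. The list median was 0.05 with quantile normalization, PLAUR (0.55) came under 1.5-fold with it, and PLAUR (0.55) and F2RL2 (0.56) did so with the trend removed. Metalloproteases and their inhibitors gave 1 of 16, MMP7, matrilysin, at 5.85 and 6.64 (0.79). Matrix proteins and lysyl oxidases gave 2 of 16, the laminin chain LAMB1 (0.72) and the collagen crosslinker LOXL2 (0.71). Integrins gave 1 of 8, ITGB8, which partners with alpha-V to release active TGF-beta, at 5.60 and 6.56 (0.96). The control values of LOXL2 (5.54) and ITGB8 were below the array median, so the integrin count has no weight. The medians of these 3 lists were 0.00, 0.00 and 0.07, the last being 0.03 with quantile normalization.

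TGF-beta ligands, receptors and targets had a median of 0.17, with 21 of 24 above 0. TGFB3 (1.63), the type I receptor TGFBR1 at 6.03 and 6.76 (0.72) and the target TGFBI at 8.31 and 8.92 (0.61) were the 3 of 19 counted as higher. The TGFB3 control value was below the array median. With quantile normalization the list median was 0.11, and TGFBI came under 1.5-fold (0.55, and 0.54 with the trend removed). In the BMP and activin list the 2 counted genes were antagonists: NOG was higher and FST lower. No WNT gene of 19 above the filter was counted (median -0.08 over 40), the furthest being the receptor FZD8 at -0.47 and the secreted antagonist SFRP5 at -0.45. Notch and Hedgehog genes likewise gave 0 of 12. Semaphorins, plexins, ephrins and Eph receptors gave SEMA6A alone of 19.

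The mesenchymal list had a median of 0.03 over 20 genes, of which 8 were above the filter. Those 8 were all above 0, with a median of 0.42, against 0.05 over all genes above the filter. Members that were dim on the control could pass the filter through the overexpression array, as 2 of the 3 counted did. The signs and the median of these 8 genes therefore have no weight. VIM, the intermediate filament vimentin, was at 5.35 and 6.55 (1.19), and LOXL2 and TGFBI were the other 2 counted. For VIM and LOXL2 the size is uncertain because the control value was below the median. Chosen after the values were seen, the transcription factor ZEB1 was at 5.80 and 5.82, and CDH2, N-cadherin, was below the median on both arrays (3.69 and 3.59). The epithelial list had a median of 0.00 over 42 genes, and CLDN7, a tight junction claudin at 7.49 and 6.90 (-0.59), was the only 1 of 25 counted. CDH1, E-cadherin, was at 8.38 and 8.29.

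Inflammatory genes gave 7 of 29 above the filter as higher and none as lower, and the median over all 44 was 0.15. IL6 was at 6.61 and 7.80 (1.19), the neutrophil chemokine CXCL8 at 6.55 and 7.58 (1.02) and IL18 at 6.34 and 7.27 (0.94). The monocyte chemokine CCL2 (0.78), NFKBIA, which holds NF-kB in the cytoplasm (0.77), and the TNF ligands TNFSF15 (0.66) and TNFSF10 (0.61) followed. NFKBIA was at 9.82 and 10.59, both above the array medians, while the CCL2 control value of 5.49 lay below. IL6 has 2 features, of which the brighter over the 5 arrays is given. The mean of both features gave a difference of 0.85. Of the 44 members 16 were below 0. With quantile normalization the median was 0.08, and TNFSF15 (0.54) and TNFSF10 (0.57) came under 1.5-fold, as they did narrowly with the trend removed.

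Interferon-stimulated genes had one of the higher list medians, 0.34 over 43 genes, with 37 above 0 and 5 below. Of the 25 above the filter 6 were counted as higher. IFI27, a mitochondrial protein induced by type I interferon, was at 5.43 and 7.07 (1.64). IFI6, whose promoter holds the motif shown above, was at 6.55 and 7.64 (1.08). OAS2, an oligoadenylate synthetase that activates RNase L, was at 5.27 and 6.10 (0.83), RIGI, a sensor of viral RNA, at 5.93 and 6.72 (0.79), MX1, an antiviral GTPase, at 5.47 and 6.22 (0.75) and OAS3 at 7.33 and 8.02 (0.69). For IFI27, OAS2 and MX1 the control value was below the array median. The median of the list stayed at 0.34 with quantile normalization and was 0.35 with the trend removed, while OAS3 (0.58) came just under 1.5-fold with quantile normalization. In the antigen-presentation lists PSME2, a proteasome activator, was higher at 0.66 in class I (0.58, just under 1.5-fold, with quantile normalization or the trend removed), and HLA-DMB was the lower gene of class II, where only 2 of 12 genes were above the filter.

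Most genes of the cell cycle lists were dim on the CRL-5907 arrays, and few of them were counted. Over the 70 mitosis and G2/M genes the median was 0.37, with 64 above 0 and 6 below, but only 13 were above the filter. NUSAP1, a spindle microtubule protein, was at 7.29 and 8.69 (1.41). CKS2, a subunit of cyclin-dependent kinase complexes, was at 7.58 and 8.76 (1.19). ECT2, an exchange factor needed for cytokinesis, was at 5.97 and 7.07 (1.09), and PLK1, the mitotic Polo-like kinase, at 4.90 and 5.90 (1.00). FOXM1, a transcription factor of mitotic genes (0.69), and the centromere histone CENPA (0.65) completed the 6 counted, of which PLK1 and FOXM1 had control values below the array median. A further 12 members passed 1.5-fold in the higher direction but lay below the filter, and 1 did so in the lower direction.

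DNA replication and G1/S genes had a median of 0.34 over 47, with 39 above 0 and 7 below. GINS1, a subunit of the replicative helicase, was at 4.42 and 5.92 (1.49). TYMS, thymidylate synthase, was at 5.40 and 6.42 (1.02). DTL, a substrate receptor of the CUL4 ubiquitin ligase, was at 5.22 and 6.07 (0.85), CCNE1, cyclin E1, at 5.14 and 5.89 (0.75), and GINS2 at 5.20 and 5.82 (0.63). All 5 had a control value at or below the array median and passed the filter through the overexpression array, so their count has no weight of its own. E2F3 (0.67) and the phosphatase CDKN3 (0.64) were counted in the list of cyclins and kinase inhibitors, beside CCNA1 and CCNE1. E2F3 and CCNE1 had control values below the array median. CDKN3 came under 1.5-fold with quantile normalization (0.56) and with the trend removed (0.58). DNA repair genes gave 0 of 10 above the filter, with a median of 0.15 over 31, led by the mismatch repair gene MSH6 at 0.44. The chromatin list gave the bromodomain protein ATAD2 (0.84) and EZH2, the methyltransferase of Polycomb complex 2 (0.67), both with control values at or below the median.

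Replication-dependent histone genes, which are transcribed in S phase, had a median of 0.21 over 43, and 9 of the 22 above the filter were counted as higher. Of these 9, H3C1, H3C10, H4C2 and H4C13 had control values at or below the median and passed the filter through the overexpression array, so their part of the count has no weight. H3C3 was at 6.51 and 8.25 (1.74), H3C2 at 8.23 and 9.82 (1.59) and H3C1 at 4.25 and 5.78 (1.53). H2BC5 (1.09), H1-1 (0.88), H3C10 (0.85), H4C2 (0.73), H4C13 (0.64) and H2BC14 (0.62; 0.53 with quantile normalization) followed, and 13 of the 43 were below 0. Below the filter, H2AC4 was at 1.79 and H2BC3 at 1.23. H1-1, H3C1, H4C2, H3C2 and H3C3 are neighbours among the measured genes of chromosome 6, the longest of 15 runs of 2 or more neighbouring genes counted in the same direction. On chromosome 6, 27 of the 360 genes above the filter were higher, 7.50%. These include NEDD9 itself and all 9 counted histone genes. Chromosome medians otherwise ran from 0.00 on chromosome 19 to 0.12 on chromosome 13. Other neighbouring pairs, picked after the values were seen, were FADS1 and FADS2, and OAS2 and OAS3, on the higher side, and FETUB and KNG1 on the lower side. Probes for near-identical histone genes can hybridise to each other's RNA, so the members of this list are not independent.

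**Figure D3:**
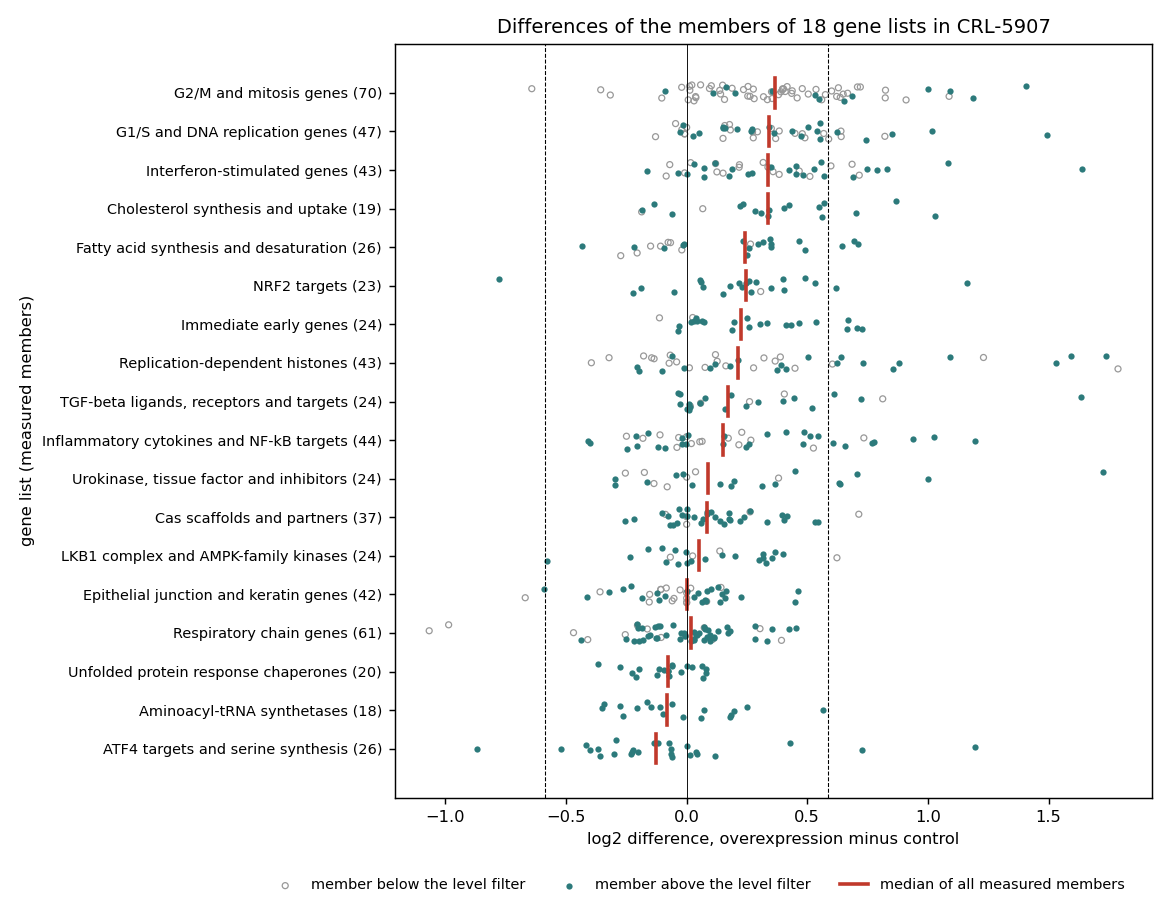
Log2 difference between overexpression and control (horizontal axis) of each measured member of 18 gene lists, with the number of measured members in brackets. Filled points are above the level filter, open points below it, red bars are medians and dashed lines 1.5-fold: medians run from 0.37 for mitosis genes to -0.13 for ATF4 targets, and most mitosis genes are open points.

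Genes of cholesterol synthesis and uptake had a median of 0.34, with 15 of 19 above 0, and nearly all, 17, were above the filter. HMGCS1, the HMG-CoA synthase of the mevalonate pathway, was at 7.81 and 8.84 (1.03). IDI1, which interconverts the isoprenoid building blocks, was at 7.29 and 8.16 (0.87), and NSDHL, a later enzyme of sterol synthesis, at 7.70 and 8.41 (0.70). All 3 had both values above the array medians. For the 26 fatty acid synthesis and desaturation genes the median was 0.24, with the delta-6 desaturase FADS2 at 9.35 and 10.06 (0.71), the lipase PNPLA3 (0.70) and the delta-5 desaturase FADS1 at 9.39 and 10.03 (0.64). That median was 0.15 with quantile normalization, and FADS1 came under 1.5-fold (0.55, and 0.57 with the trend removed). In the cholesterol export list NPC1, which moves cholesterol out of lysosomes, was at 0.77.

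NRF2 targets, the genes of the oxidant response, had a median of 0.24, with 19 of 23 above 0. HMOX1, heme oxygenase 1, was at 6.76 and 7.92 (1.16) and GCLM, a subunit of the enzyme that starts glutathione synthesis, at 7.53 and 8.14 (0.62). ALDH3A1 was the member counted as lower. With quantile normalization the median was 0.14, and GCLM came under 1.5-fold (0.51, and 0.54 with the trend removed). In the iron list HMOX1, which frees iron from heme, and FTL, the ferritin light chain that stores it, at 8.05 and 8.95 (0.90), were higher, and the exporter SLC40A1 was lower. The list's median was -0.01.

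The 35 hypoxia and glycolysis genes gave a median of 0.15, with BHLHE40 (0.76), the phosphofructokinase PFKP (0.66), the enolase ENO2 (0.65) and NDRG1 (0.64) counted among 29. With quantile normalization the median was 0.07, and PFKP (0.54) and NDRG1 (0.53) came under 1.5-fold, as they did with the trend removed (0.58 and 0.57).

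The lists of the amino acid response and of chaperones had medians below 0, as did the EGF receptor and WNT lists above. So did lists with few members above the filter, such as keratin-associated proteins (-0.09), neuroendocrine markers (-0.08) and olfactory receptors (-0.05). The median of ATF4 targets and serine synthesis genes was -0.13, and 18 of 26 were below 0, although the 3 counted members did not share a direction: CTH and ATF3 were higher and PCK2 lower. Chaperones of the unfolded protein response had a median of -0.08, 14 of 20 below 0 and none counted, with PDIA4 at -0.37 and HSPA5, the main chaperone of the endoplasmic reticulum, at -0.28. Aminoacyl-tRNA synthetases also had a median of -0.08 and none of 18 counted, SARS1 being at -0.35 and RARS1 at 0.57. These 3 medians were -0.22, -0.15 and -0.15 after quantile normalization.

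The 61 respiratory chain genes had a median of 0.02, which turned to -0.08 after quantile normalization, and none of 48 was counted. Of 107 zinc finger genes above the filter none was counted (median 0.00 over 305), and of 55 mitochondrial ribosomal protein genes 1 was, MRPL49 at -0.64. The MRPL49 value with overexpression, 5.26, was below the array median, so that count has no weight. Proteasome genes had a median of 0.19, with 25 of 29 above 0 and PSMA3 (0.59) the only 1 counted. The proteasome median was 0.10 with quantile normalization, and PSMA3 came under 1.5-fold with centring, quantile normalization and the trend removed (0.57, 0.54 and 0.51). Of 144 solute carriers above the filter 8 were higher (5.56%) and 3 lower. SLC6A12 and the inositol transporter SLC5A3, at 9.14 and 10.08 (0.95), led the higher side, and SLC40A1, SLC25A29 (-0.70) and SLC25A45 (-0.61) made up the lower side. Single members were counted in the lists of p53 targets (PLK2), heat shock genes (HSPH1 at 0.84), annexins and S100 proteins (ANXA10 at 0.71), clade B serpins (SERPINB9, an inhibitor of granzyme B, at 0.82) and MYC targets (LYAR at 0.65). The control values of PLK2 (5.12) and LYAR (5.66) were below the array median, so the counts of p53 and MYC targets have no weight. Septins, cilium genes, lung lineage genes and CEACAM genes gave none.

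The knockdown arrays of A549 have their own control array, so the values of both experiments stand side by side. NEDD9 differed by 4.83 in CRL-5907 and by -0.59 and -0.41 with the hairpins, and the sizes are therefore not matched. Among 6738 genes above the filter in both lines, 202 were counted as higher and 41 as lower with overexpression. Both hairpins were at least 1.5-fold higher for 24 of the 6738 (0.356%) and lower for 3 (0.0445%). Of the genes that were higher with overexpression 1 was lower with both hairpins, LOXL2, which was at -1.25 with hairpin 1 and -0.74 with hairpin 2. It is 0.495% of the 202 and 33.3% of the 3. The CRL-5907 control value of LOXL2, 5.54, was below the array median. LOXL2 thus passed that line's filter only through the overexpression array, and this count has no weight.

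Another 4 of the 202 were higher with both hairpins as well, which is 1.98% of the 202 and 16.7% of the 24. They were COX20 (0.61 with overexpression, 0.76 and 0.72 with the hairpins), DTL (0.85, 0.81 and 1.02), FAM223A (1.10, 0.95 and 1.53) and RIMKLB (0.84, 1.15 and 0.86). These 5 genes were singled out by the side-by-side count after the values were seen. DTL, like LOXL2, had a CRL-5907 control value below the array median. None of the 41 lower genes passed 1.5-fold with both hairpins in either direction. Below that fold, 44 of the 202 higher genes had a sign opposite to overexpression with both hairpins and 116 the same sign. These are 21.8% and 57.4% of the 202. Over all 6738 genes both hairpins were below 0 for 1476 (21.9%) and above 0 for 3573. Of the 41 lower genes 20 were above 0 with both hairpins, 48.8%, and 8 below 0, 19.5%. The shares of the higher and the lower genes were thus near those over all genes. AK4, IL6, ULBP1 and NRG4 were picked after the values were seen, as examples of opposite signs. AK4 was at -0.47 and -1.18 with the hairpins and IL6 at -0.74 and -0.62, IL6 being below the array median in A549. ULBP1 was at 0.60 and 0.54, and NRG4 at 1.01 and 1.03, with a level of 4.19 on the A549 control. The same sign was more common among the higher genes, for example in NUSAP1, at 0.47 and 0.61 with the hairpins.

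For lists, the mitosis genes had medians of 0.33 and 0.51 with the hairpins beside 0.37 with overexpression, and the replication genes 0.23 and 0.28 beside 0.34. Over all 6738 genes above the filter in both lines the hairpin medians were 0.09 and 0.04. The list medians instead cover all measured members, of which 13 of 70 and 23 of 47 were above the CRL-5907 filter, so the sets are unlike. The sign of the cell cycle medians was thus the same when NEDD9 was lowered in A549 and raised in CRL-5907. Interferon-stimulated genes had medians of 0.01 and -0.01 with the hairpins beside 0.34, and cholesterol genes 0.18 and 0.00 beside 0.34. Aminoacyl-tRNA synthetases had 0.20 and 0.16 beside -0.08. None of these differences between the experiments was tested.

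**Figure D4:**
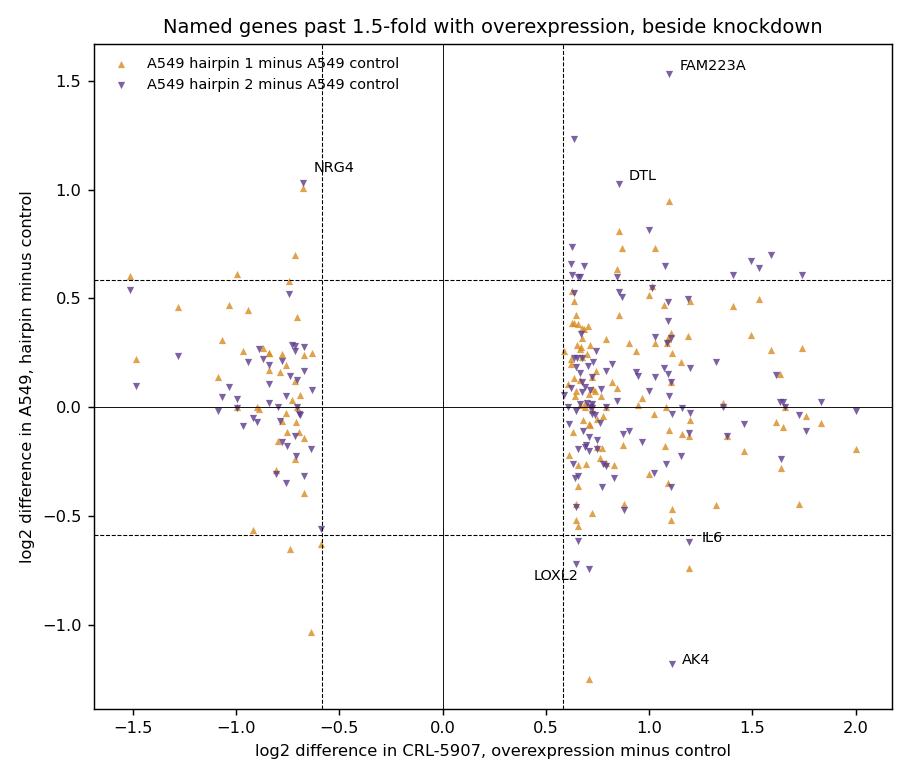
Log2 difference with overexpression in CRL-5907 (horizontal axis) and with each hairpin in A549 (vertical axis) for the 157 named genes counted with overexpression, NEDD9 left out, 1 triangle per hairpin. Dashed lines mark 1.5-fold: few triangles pass it vertically, LOXL2 lies to the right and below with both hairpins, and DTL and FAM223A lie to the right and above.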

How the data were processed

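Total RNA was depleted of ribosomal RNA, copied into biotin-labelled cDNA and hybridised to 1 exon array per sample, per the labels' protocols. The deposited values are log2 levels of 22011 features, which the authors computed using Affymetrix Power Tools (RMA), as the submitters' processing notes list. Versions and genome build are not given in the sources used here. RMA corrects background, quantile-normalizes and summarises probes. Array number limits the precision.

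Features were named from the platform annotation: 14432 had 1 symbol, 2408 several and 5171 none. Of the 14432, 14404 matched RefSeq. Differences, the filter and counts were computed with Python 3.11.15, pandas 2.3.3 and numpy 2.4.6, and tested on simulated data. Alternatives were centring, quantile normalization, a lowess trend (statsmodels 0.14.6, span 0.3), feature means, other filters and 2-fold.

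Named genes are NEDD9, STK11, the 40 highest and 40 lowest above the filter and, per list, counted members up to 10 or otherwise up to 4 furthest from 0. The members and the 71 gene lists were chosen with earlier results of these data known. Another 4 lists were gathered after the values were seen. For hairpin 2 the title, NEDD9, was followed, although its description reads NEDD10. The labels do not say whether arrays came from separate cultures.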

Additional observations from a re-analysis of the deposited data

How the results depend on the processing

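The count of higher genes, 259, was 413 without the level filter, 149 with a filter at the 75th percentile and 52 at 2-fold. The count of lower genes, 62, was 192, 34 and 6 under the same settings and 103 after a further quantile normalization. The filters and the 2-fold threshold change how many genes can be counted by construction, and the cause of the quantile normalization's effect was not tested. Centring, removal of the trend, feature means and a filter on both arrays kept both counts within 1.5 times. Of the 158 named genes counted at 1.5-fold, none changed sign under centring, quantile normalization, trend removal or feature means. Of these, 1, 17, 14 and 0 respectively came under 1.5-fold. No paired analysis was possible because each condition has 1 array. No replicate could be left out for the same reason. Background detection per feature is not known here, so differences of dim genes are the least certain.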

Other observations

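A further 4 lists were gathered after the values had been seen, around genes that led the ranking, so their counts carry no weight beyond a description. Transporters of compatible osmolytes, which cells take up when they must hold water, included SLC6A12, at 7.68 and 9.13 (1.46), and SLC5A3, at 9.14 and 10.08 (0.95), and the sodium pump subunit ATP1B3 was at 7.01 and 7.97 (0.96). Subunits of the volume-regulated anion channel, through which osmolytes leave, lay on the other side of 0 or near it: LRRC8D was at -0.78, LRRC8B at -0.58, LRRC8C at -0.42 (below the filter) and LRRC8A at 0.13. NFAT5, the transcription factor that induces both transporters under salt stress, was at 8.50 and 8.83 (0.33). LRRC8B, just short of 1.5-fold, passed it with centring, quantile normalization and the trend removed (-0.59, -0.65 and -0.65). In this list 3 of 17 genes above the filter were higher and 1 lower.

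Among sensors of nucleic acids and interferon genes RIGI (0.79), the DNA sensor CGAS at 5.20 and 5.96 (0.76) and IFI16 at 7.04 and 7.66 (0.62; 0.53 with quantile normalization, under 1.5-fold) were counted as higher, while STING1, the adaptor downstream of CGAS, was at 6.70 and 6.18 (-0.52). The CGAS control value was below the array median. IFNB1 was below the median on both arrays (2.24 and 1.96), and IFNG was at 1.70 on both. Of 22 genes above the filter for purine synthesis and salvage 5 were higher: AK4 (1.11), PRPS2 (0.84), PNP (0.64), HPRT1 (0.61) and PAICS (0.59). Of these 5, 2 had control values at or below the array median, AK4 (5.52) among them. With quantile normalization HPRT1 (0.57) and PAICS (0.52) came under 1.5-fold, PNP (0.56) did so with the trend removed, and the median over all 26 was 0.15 as deposited and 0.08 with quantile normalization. Of 45 genes for phospholipid and sphingolipid enzymes above the filter 12 were higher and none lower, led by GPAT3 (1.11), PLA2G2A (1.09) and NAPEPLD (0.79), and the median over all 60 was 0.13 (0.06 with quantile normalization). Of those 12, 3 had control values at or below the array median.

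Features outside the comparison gave counts of the same order. Of 2333 unnamed features above the filter 153 were higher (6.56%) and 42 lower (1.80%). Of 1140 features with several symbols 45 were higher (3.95%) and 19 lower (1.67%). Among named genes, 7 of 47 long non-coding RNA genes above the filter were higher and 3 lower, with a median of -0.10.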
